A study of Mus musculus with 15 samples.

Results

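Osteoblasts, the cells that lay down bone, are specified by a small set of transcription factors. The 7 genes described here were chosen by name for their known roles in that lineage: *Runx2*, *Sp7* (also called osterix), *Dlx3*, *Dlx5*, *Dlx6*, *Msx2* and *Atf4*. They were found by symbol among the 54232 genes of a table of RNA sequencing counts, and all 7 were present, each under a single identifier. All 7 also passed the filter on low counts that left 22151 genes for testing.

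The RNA came from the secondary palate of wild-type (WT) *Mus musculus* at 5 stages, which were embryonic days 13.5, 14.5, 15.5 and 16.5 (E13.5, E14.5, E15.5 and E16.5) and P0, at birth. Every stage had 3 libraries, and each library combined the dissected palates of 3 embryos, so a library is a pool and not an animal. No stage carried a mutation or a treatment. The labels give no strain, litter or batch, and nothing in them says that libraries of a stage came from separate litters, so p-values measure only the spread between these pools.

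In the palate, bone forms directly from mesenchyme, without a cartilage template, after the paired shelves have met. RUNX2 commits mesenchymal cells to the osteoblast lineage, and SP7, a zinc-finger factor that acts after RUNX2, is needed for them to mature into matrix-secreting cells. The homeodomain factors DLX3, DLX5, DLX6 and MSX2 act around these steps and also in teeth, skin and craniofacial mesenchyme, and ATF4, a leucine-zipper factor of the amino acid stress response, supports the synthesis of bone matrix in mature osteoblasts.

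On the GRCm38 build, *Runx2* (ENSMUSG00000039153.16) lies on the minus strand at chr17:44495987-44814797 and *Sp7* (ENSMUSG00000060284.7) on the minus strand at chr15:102356606-102367182. *Dlx3* (ENSMUSG00000001510.8) is on the plus strand at chr11:95120119-95125296. *Dlx5* (ENSMUSG00000029755.10, minus strand, chr6:6877805-6882085) and *Dlx6* (ENSMUSG00000029754.13, plus strand, chr6:6863334-6868568) are neighbours with 9236 bases between them. *Msx2* (ENSMUSG00000021469.9) is on the minus strand at chr13:53466884-53473074, and *Atf4* (ENSMUSG00000042406.8) is on the plus strand at chr15:80255184-80257541. The annotation lists all 7 as protein coding. Their merged exons number 11 for *Runx2*, 4 for *Sp7*, 3 each for *Dlx3*, *Dlx5* and *Dlx6*, 2 for *Msx2* and 1 for *Atf4*.

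The 4 homeobox members share a related stretch of coding sequence, and it is shown here to compare them base by base. Each stretch is the 180-base coding window most like that of *Dlx5*, printed 5′ to 3′ on the strand of the gene from the GENCODE M21 transcripts, with capitals at the bases that differ from *Dlx5*. The *Dlx5* window spans 2 exons within chr6:6878447-6879663, that of *Dlx6* 2 exons within chr6:6865134-6867082, that of *Dlx3* 2 exons within chr11:95121761-95123450, and that of *Msx2* lies in 1 exon at chr13:53468376-53468555.
Dlx5: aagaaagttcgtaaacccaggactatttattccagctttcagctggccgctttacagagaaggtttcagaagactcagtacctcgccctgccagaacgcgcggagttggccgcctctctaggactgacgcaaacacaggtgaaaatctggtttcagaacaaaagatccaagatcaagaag
Dlx6: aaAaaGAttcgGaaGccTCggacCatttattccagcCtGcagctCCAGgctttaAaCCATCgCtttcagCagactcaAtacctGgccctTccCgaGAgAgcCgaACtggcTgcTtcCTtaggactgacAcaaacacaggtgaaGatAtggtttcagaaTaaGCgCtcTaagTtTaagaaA
Dlx3: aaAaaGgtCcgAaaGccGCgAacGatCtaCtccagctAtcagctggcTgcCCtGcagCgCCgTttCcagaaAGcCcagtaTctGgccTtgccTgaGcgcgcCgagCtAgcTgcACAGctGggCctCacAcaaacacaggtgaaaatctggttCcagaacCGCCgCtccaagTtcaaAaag
Msx2: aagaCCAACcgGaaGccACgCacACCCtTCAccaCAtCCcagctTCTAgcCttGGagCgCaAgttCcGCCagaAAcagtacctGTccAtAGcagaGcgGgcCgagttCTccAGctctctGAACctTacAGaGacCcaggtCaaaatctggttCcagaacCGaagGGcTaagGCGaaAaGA
The windows equal that of *Dlx5* at 133 of 180 bases in *Dlx6* (73.9%), at 131 in *Dlx3* (72.8%) and at 109 in *Msx2* (60.6%). Over the whole transcripts, the longest run of identical bases was 18 between *Dlx5* and *Dlx6*, 23 between *Dlx5* and *Dlx3*, and 44 between *Dlx6* and *Msx2*. No 50-base window of a member's transcripts occurred in another member. Windows found in any other gene made up 4.72% of *Dlx6* windows (111 of 2350), 0.475% of *Runx2*, 0.434% of *Msx2* and 0.179% of *Sp7*, and none of *Dlx3*, *Dlx5* or *Atf4*. Exons of 2 antisense genes overlap members, *Runx2os1* over 519 bases and *Dlx6os2* over 104 bases, and the counting was strand-specific per the file header.

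Libraries held 21.5 M to 69.0 M assigned counts, the median library 61.0 M, and the lowest total was that of P0 replicate 3. The 17 osteoblast product genes summed to 2549 CPM (counts scaled to library size) or more in every library. All 3 libraries of E16.5 were under 1 CPM for Y-linked genes, as was 1 library each at E13.5, E15.5 and P0 and none at E14.5, so the sex of the pools differs between stages. Forebrain marker genes summed to 67.3 to 394 CPM at E13.5 and 124 to 247 CPM at E14.5, against 11.2 to 114 CPM at the later stages. Choroid plexus markers summed to 1409, 31.1 and 774 CPM in E14.5 replicates 1, 2 and 3.

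Some of the 7 factors were called as changing over these stages and others were not. The test does not compare the factors with one another. In the test over all stages, *Sp7*, *Dlx6* and *Atf4* differed between stages, with adjusted p-values of 0.000491, 0.0200 and 0.000736, where 59.1% of all tested genes did (edgeR quasi-likelihood F test, Benjamini-Hochberg adjusted over all tested genes, threshold 0.05). *Runx2*, *Dlx3*, *Dlx5* and *Msx2* did not pass, with adjusted p-values of 0.189, 0.153, 0.179 and 0.950 in the same edgeR test. The call for *Dlx6* ended without E13.5 replicate 3 (adjusted p = 0.0530 in edgeR), and without E16.5 replicate 3 *Runx2* passed (adjusted p = 0.0494 in edgeR). Levels are given below as CPM scaled by TMM factors (trimmed mean of M values). In bulk tissue, fewer cells of a type and less RNA per cell cannot be told apart.

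**Figure D1:**
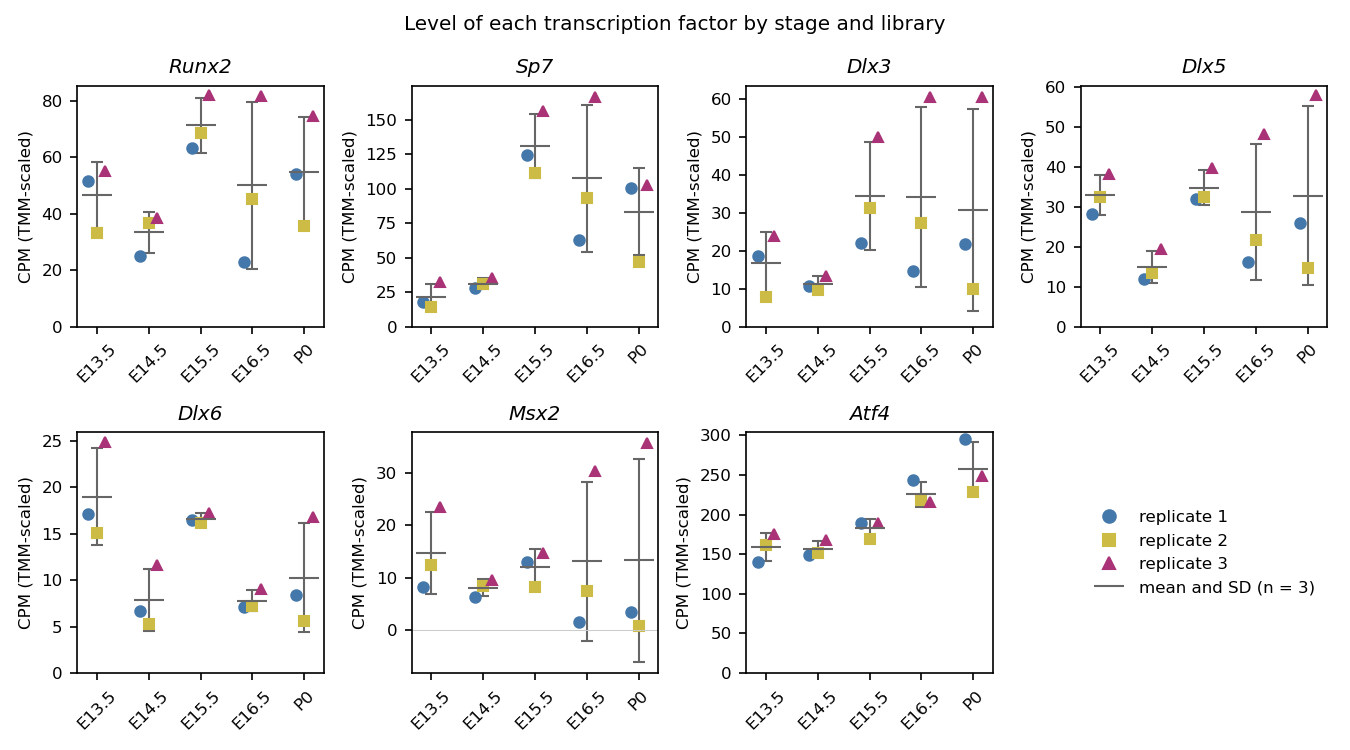
Level of each factor in CPM (vertical axis, starting at or below 0, a separate scale per gene) at each stage (horizontal axis). Symbols are the 3 libraries of a stage, and the bar and whiskers are their mean and SD; *Sp7* steps up at E15.5, *Atf4* climbs in narrow groups, and the libraries of *Msx2* at E16.5 and P0 lie far apart.

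*Runx2*, the factor that commits cells to the lineage, was present at every stage. Its libraries held 51.6, 33.2 and 55.1 CPM at E13.5 (replicates 1, 2 and 3, the order used throughout), 25.0, 36.9 and 38.4 CPM at E14.5, and 63.4, 68.5 and 82.2 CPM at E15.5. At E16.5 they held 23.1, 45.3 and 81.8 CPM and at P0 53.9, 35.7 and 74.8 CPM. The 3 libraries of E15.5 lay above all libraries of E13.5 and E14.5, whereas those of E16.5 ran from the lowest value of all 15 libraries to nearly the highest. The order of stage means from low to high was E14.5, E13.5, E16.5, P0 and E15.5, from 33.4 ± 7.33 CPM (SD, n = 3) to 71.4 ± 9.73 CPM, a 2.14-fold range. No pair of stages passed the test, and the nearest was E15.5 against E14.5, with a log2 fold change of 1.09 (95% interval 0.25 to 1.94, edgeR adjusted p = 0.0555).

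*Sp7*, which acts after *Runx2* in the lineage, showed the widest range of stage means among the members, 6.16-fold. It held 17.7, 14.1 and 32.0 CPM at E13.5 and 27.7, 30.5 and 35.3 CPM at E14.5. At E15.5 it held 125, 112 and 157 CPM, at E16.5 63.0, 93.0 and 167 CPM, and at P0 100.3, 46.9 and 103 CPM. Every library from E15.5 on was above every library of E13.5 and E14.5, so the stages fell into a low pair and a high group of 3. From low to high the means ran E13.5, E14.5, P0, E16.5 and E15.5. The step from E14.5 to P0 in that order was called, at a log2 fold change of 1.42 ± 0.39 (SE, edgeR adjusted p = 0.00834), in a comparison that called 28.9% of all genes higher, and no step within the low pair or within the high group was. Within the high group the P0 libraries were all below those of E15.5, with a log2 fold change of -0.65 (95% interval -1.49 to 0.18, edgeR adjusted p = 0.240).

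The 3 *Dlx* genes were lowest at E14.5 or close to it. *Dlx5*, a homeodomain factor of craniofacial bone, held 28.2, 32.5 and 38.1 CPM at E13.5, then 12.01, 13.3 and 19.5 CPM at E14.5 and 32.0, 32.4 and 39.8 CPM at E15.5. At E16.5 it held 16.3, 21.7 and 48.2 CPM and at P0 26.0, 14.5 and 57.9 CPM. All E14.5 libraries were thus below all E13.5 and all E15.5 libraries, and both later stages overlapped with every other stage. Its means ran from low to high in the order E14.5, E16.5, P0, E13.5 and E15.5, and no pair of stages was called.

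*Dlx6*, the neighbour of *Dlx5* and its partner in jaw patterning, held 17.1, 15.02 and 24.8 CPM at E13.5 and 6.71, 5.25 and 11.6 CPM at E14.5. At E15.5 the 3 libraries were close together, at 16.5, 16.1 and 17.2 CPM. They held 7.08, 7.19 and 9.08 CPM at E16.5 and 8.35, 5.55 and 16.8 CPM at P0. E13.5 and E15.5 lay apart from E14.5 and E16.5 with no overlap. Of the pairs of stages, only E16.5 against E13.5 was called, with a log2 fold change of -1.29 ± 0.38 (SE, edgeR adjusted p = 0.0142). The drop from E13.5 to E14.5 was as large, -1.27 ± 0.38, with an unadjusted p of 0.00520 in edgeR against 0.00488 for the called pair. Its adjusted p was 0.172, since only 0.00903% of all genes were called between E13.5 and E14.5 and 48.2% between E13.5 and E16.5 (23.0% lower at the later stage). Forebrain markers, from a tissue that also uses *Dlx5* and *Dlx6*, had overlapping libraries at E13.5 and E14.5 (values above), and their part in the drop was not tested. From low to high the *Dlx6* means ran E16.5, E14.5, P0, E15.5 and E13.5.

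*Dlx3*, a factor of bone, tooth and skin, held 18.6, 7.69 and 23.9 CPM at E13.5 and 10.8, 9.57 and 13.4 CPM at E14.5. It held 22.1, 31.2 and 49.95 CPM at E15.5, 14.6, 27.2 and 60.6 CPM at E16.5, and 21.7, 9.85 and 60.6 CPM at P0. The E14.5 libraries were below all libraries of E15.5 and E16.5 and overlapped with those of E13.5 and P0. From E15.5 on replicate 3 stood at 49.95 CPM or more, and no other library passed 31.2 CPM. No pair of stages was called in edgeR, and the means from low to high ran E14.5, E13.5, P0, E16.5 and E15.5.

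*Msx2*, a homeodomain factor downstream of BMP signalling, was the most scattered member. It held 8.26, 12.5 and 23.5 CPM at E13.5, 6.34, 8.34 and 9.59 CPM at E14.5, and 13.05, 8.26 and 14.8 CPM at E15.5. At E16.5 it held 1.60, 7.41 and 30.3 CPM and at P0 3.38, 0.854 and 35.7 CPM, which is an 18.98-fold and a 41.8-fold range between libraries of a stage. The lowest of these, P0 replicate 2, rests on 28 counts. The fitted biological coefficient of variation of *Msx2*, the relative spread between libraries beyond counting error, was 0.860, above that of 96.7% of tested genes. Its stage means ran only from 8.09 ± 1.64 CPM (SD, n = 3) at E14.5 to 14.7 ± 7.85 CPM at E13.5, no stage was called against another, and no pair of stages separated its libraries.

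*Atf4*, by contrast, was the least scattered member, with a coefficient of 0.135, lower than that of all but 6.60% of tested genes. It held 140.0, 161 and 175 CPM at E13.5, 149, 152 and 168 CPM at E14.5, and 189, 169 and 189 CPM at E15.5. It then held 243, 218 and 215 CPM at E16.5 and 296, 229 and 249 CPM at P0. Each of the last 2 stages lay above all 3 earlier ones without overlap. Its means ran from low to high in the order E14.5, E13.5, E15.5, E16.5 and P0, from 156 ± 10.1 CPM to 258 ± 34.3 CPM (SD, n = 3). No step between neighbours in this order was called, while P0 was called above E15.5 by 0.50 ± 0.12 on the log2 scale (SE, edgeR adjusted p = 0.0139) and E16.5 above E13.5 by 0.51 ± 0.12 (edgeR adjusted p = 0.00478). All genes called higher made up 12.2% in the first and 25.2% in the second of these comparisons.

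Per length, as FPKM (CPM divided by the kilobases of exon), *Atf4* was the highest member at every stage, from 66.2 ± 4.30 FPKM (SD, n = 3) at E14.5 to 109 ± 14.6 FPKM at P0. *Sp7* at E13.5 had 6.25 ± 2.79 FPKM and stood behind *Atf4*, *Dlx5*, *Dlx6* and *Dlx3*, and was second to *Atf4* at each later stage, with 38.5 ± 6.82 FPKM at E15.5. *Dlx5* had 14.6 ± 2.21 FPKM at E13.5 and 15.3 ± 1.94 FPKM at E15.5. *Runx2*, whose model of 8837 exon bases is the longest, stood at 3.78 to 8.08 FPKM and *Msx2* at 2.47 to 4.50 FPKM, the range of stage means in each case. At E13.5 the FPKM libraries of *Sp7*, *Dlx3* and *Dlx6* spread over one another, so their order there is not resolved.

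Between E13.5 and E14.5 no member was called, as almost no gene was (0.00903% of tested genes, edgeR). Of the 7 fitted changes 6 were negative, with a median log2 fold change of -0.57 over the 7 against 0.02 over all genes. All 3 E14.5 libraries were below all 3 E13.5 libraries for *Dlx5* and *Dlx6*, a pattern that 13.7% of all genes showed. *Dlx5* had a log2 fold change of -1.14 ± 0.46 (SE, edgeR adjusted p = 0.262). *Dlx5* and *Dlx6* were also the 2 members with an unadjusted p under 0.05 in edgeR. The share of all genes with such a p was not recorded for these stages, so that count has no background to be read against. *Sp7* had the only positive value, 0.55 ± 0.39. *Dlx6* passed in DESeq2 (log2 fold change -1.29, adjusted p = 0.0258).

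From E14.5 to E15.5 all 7 fitted changes were upward and *Sp7* rose 4.21-fold. *Sp7* was the 1 member of 7 called, against 26.1% of all genes called in either direction and 12.7% called higher, with a log2 fold change of 2.07 ± 0.40 (SE, edgeR adjusted p = 0.00412). The next largest changes were 1.61 ± 0.65 for *Dlx3*, 1.22 ± 0.46 for *Dlx5*, 1.09 ± 0.39 for *Runx2* and 1.08 ± 0.38 for *Dlx6*, with edgeR adjusted p-values of 0.0851, 0.0686, 0.0555 and 0.0510. *Atf4* had 0.22 ± 0.12 and *Msx2* 0.57 ± 1.08, the latter with a 95% interval from -1.77 to 2.91. For 6 of the 7, all but *Msx2*, every E15.5 library lay above every E14.5 library, as 24.0% of all genes did. The count called moved with the choice of test, as 5 members passed in DESeq2 and in edgeR on the 6 libraries alone, the same 5 in both (*Sp7*, *Runx2*, *Dlx3*, *Dlx5* and *Dlx6*). The share of all genes called in these settings was not recorded, so the count of 5 has no background to be read against. Without E14.5 replicate 3, *Dlx6* passed as well as *Sp7*, with a log2 fold change of 1.46 (edgeR adjusted p = 0.0198).

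**Figure D2:**
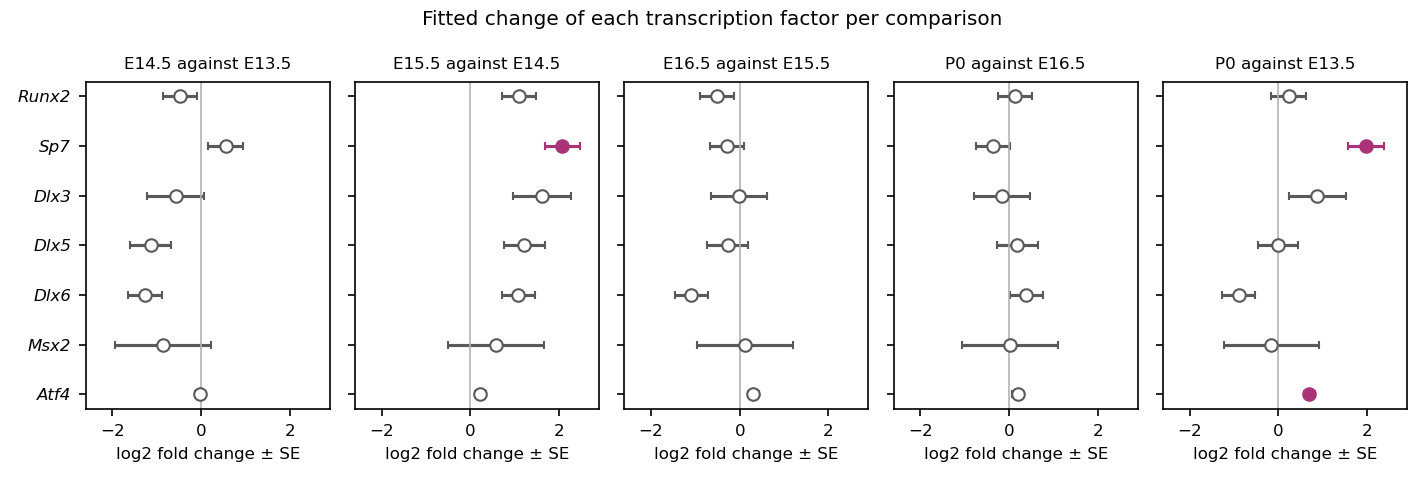
Fitted log2 fold change (horizontal axis, with its SE as the bar) of each factor (rows) in 5 comparisons of stages (panels). Filled symbols mark an edgeR adjusted p under 0.05, which only *Sp7* at E15.5 against E14.5, and *Sp7* and *Atf4* at P0 against E13.5, reached in the comparisons drawn.

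From E15.5 to E16.5 no member was called by edgeR, against 1.41% of all genes, and 2 had an unadjusted p under 0.05, as 21.8% of all genes did. The *Dlx6* libraries were all lower at E16.5, with a log2 fold change of -1.09 ± 0.38 (SE, edgeR adjusted p = 0.128), as the libraries of 15.5% of all genes were. *Atf4* libraries were all higher, with a log2 fold change of 0.31 ± 0.12 (SE, edgeR adjusted p = 0.171), as 15.7% of all genes were. *Dlx6* passed in DESeq2, where its log2 fold change was -1.08 (adjusted p = 0.0491). From E16.5 to P0 no member was called by edgeR, against 0.352% of all genes, no member had an unadjusted p under 0.05 (11.7% of all genes), and no member's libraries separated (11.6% of all genes). DESeq2 likewise called 0 there.

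Over the whole span, P0 against E13.5, *Sp7* and *Atf4* rose in edgeR and no member fell past the threshold there, in a comparison where 56.6% of all genes were called and 29.8% called higher. *Sp7* was 3.92-fold higher at birth, a log2 fold change of 1.97 ± 0.40 (SE, edgeR adjusted p = 0.00120). *Atf4* was 1.62-fold higher, a log2 fold change of 0.70 ± 0.12 (SE, edgeR adjusted p = 0.000438), so the smaller change had the smaller p. Both were higher in 3 of 3 P0 libraries than in any E13.5 library, as 30.2% of all genes were. *Dlx6* had -0.89 ± 0.37 (edgeR adjusted p = 0.0578) and passed in DESeq2, at -0.88 (adjusted p = 0.0390). *Dlx5* and *Runx2* had values near 0, with 95% intervals of -0.99 to 0.98 and -0.61 to 1.07. P0 replicate 3 decided 2 further calls, since without it *Msx2* had a log2 fold change of -2.79 (edgeR adjusted p = 0.0350) and *Dlx6* one of -1.43 (edgeR adjusted p = 0.00421). With replicates 1 and 2 of every stage alone, a setting chosen after the data were seen, the same 2 genes passed, at -2.28 for *Msx2* (edgeR adjusted p = 0.0489) and -1.20 for *Dlx6* (edgeR adjusted p = 0.00685).

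Ratios of 2 members within a library do not depend on its depth or scaling, and 4 such ratios were followed over the stages. *Sp7* counts were 0.343 to 0.580 of those of *Runx2* at E13.5, 0.827 to 1.11 at E14.5, 1.63 to 1.97 at E15.5, 2.04 to 2.73 at E16.5 and 1.31 to 1.86 at P0. The 3 ranges from E13.5 to E15.5 do not overlap, nor does that of E16.5 with any other stage. The log2 ratio was higher by 0.95 at E15.5 than at E14.5 and by 1.77 at P0 than at E13.5, each with an exact two-sided permutation p of 0.1, the smallest that 3 libraries against 3 allow, and 0.16 after adjustment over 8 ratio tests. These counts are not per length, so a ratio of 1 does not mean equal transcript numbers.

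**Figure D3:**
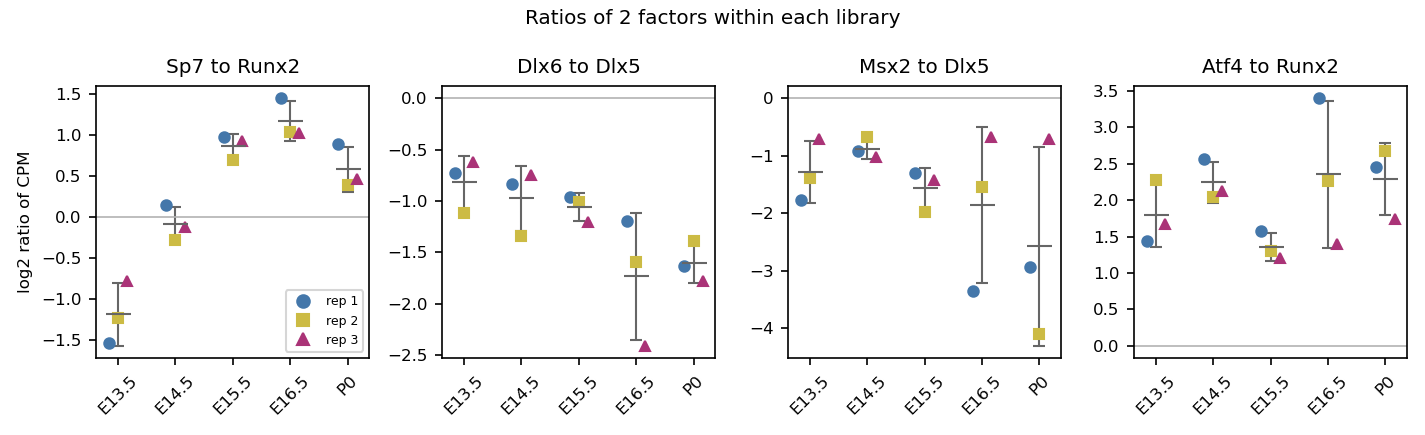
Log2 ratio of the CPM of 2 factors within each library (vertical axis, a separate scale per panel) by stage (horizontal axis), with the 3 libraries as symbols and their mean and SD as bars. The *Sp7* to *Runx2* ratio is higher at each stage from E13.5 to E16.5 in closely grouped libraries, while *Msx2* to *Dlx5* spreads widely at E16.5 and P0.

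*Dlx6* to *Dlx5* ratios ran from 0.462 to 0.651 at E13.5 and from 0.290 to 0.382 at P0, and so did not overlap. The log2 difference was -0.78 (exact permutation p = 0.1, adjusted 0.16), whereas from E14.5 to E15.5, where both genes had higher means, it was -0.08 (exact permutation p = 0.7, adjusted 0.7). For *Msx2* to *Dlx5* the log2 difference from E14.5 to E15.5 was -0.69, without overlap (exact permutation p = 0.1, adjusted 0.16). From E13.5 to P0 its difference of -1.29 lay within the spread of the libraries (exact permutation p = 0.4, adjusted 0.457). For *Atf4* to *Runx2* it was -0.89 from E14.5 to E15.5, again without overlap (exact permutation p = 0.1, adjusted 0.16), and its difference of 0.49 from E13.5 to P0 had overlapping libraries (exact permutation p = 0.2, adjusted 0.267).

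Within a stage the members were mostly highest in the same library. Replicate 3 was the highest of its stage in 33 of the 35 combinations of member and stage, and for 6 members at every stage, with *Atf4* at E16.5 and P0 as the exceptions. Over all tested genes replicate 3 was highest in 36.0% of combinations, and 3.48% of genes (770) had it highest at every stage. At the other end, E16.5 replicate 1 was lowest for 6 members and P0 replicate 2 for all 7. The lowest library was split at the earlier stages. Replicates 1 and 2 were lowest for 3 and 4 members at E13.5, 5 and 2 at E14.5, and 3 and 4 at E15.5. The share of all genes lowest in each library was not recorded. The deviation from the stage mean in these libraries was widest for *Msx2* and narrow for *Atf4*, as the plot of deviations shows.

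**Figure D4:**
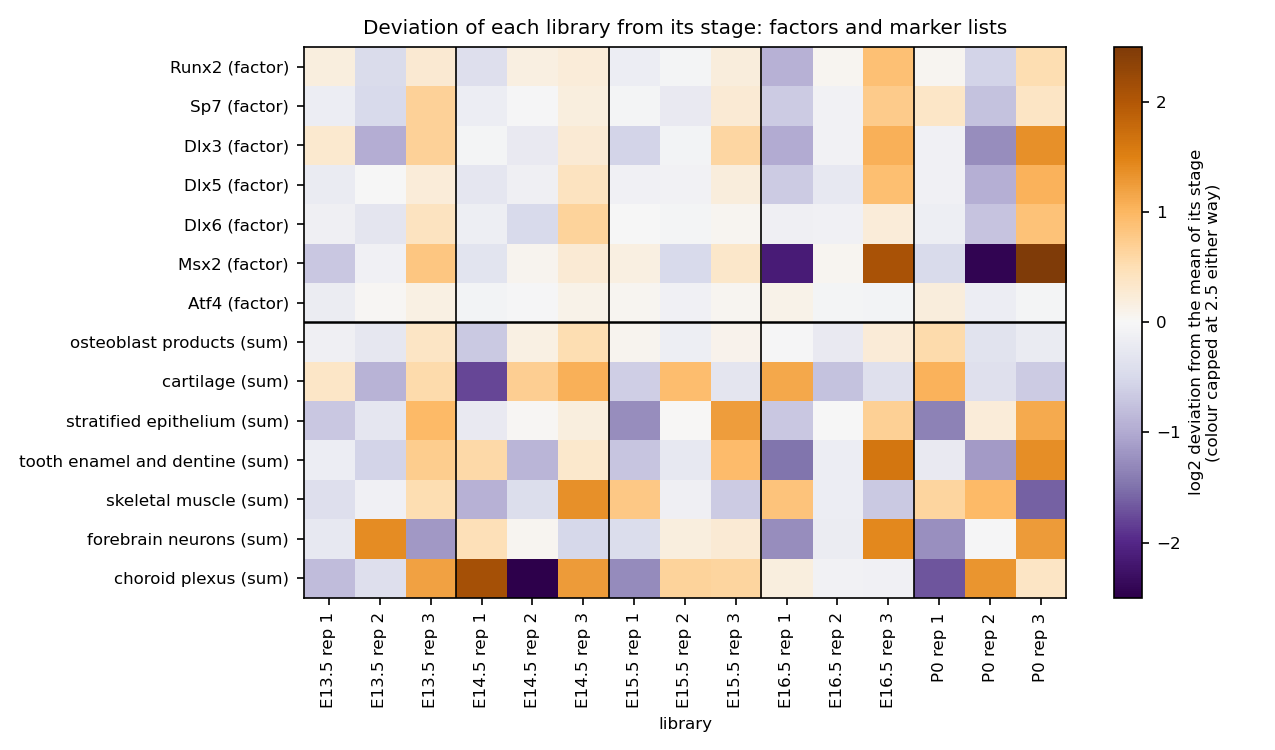
Log2 deviation of each library from the mean of its stage (colour) for the 7 factors (upper rows) and for the summed CPM of marker lists (lower rows), with the 15 libraries as columns and stages parted by lines. Replicate 3 is orange for nearly all factors and for stratified epithelium at every stage, and skeletal muscle is purple in replicate 3 at E15.5, E16.5 and P0.

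Marker genes of other tissues moved with these libraries. The 9 tested genes of stratified epithelium (keratins and other genes of lining cells) summed to 860, 1371 and 2247 CPM at E16.5 and to 906, 2704 and 5024 CPM at P0, and replicate 3 was the highest at all 5 stages. Of 8 genes listed for tooth enamel and dentine, 5 were tested, *Amelx*, *Ambn*, *Enam*, *Odam* and *Klk4*. The dentine gene *Dspp* was not among them, so their sum does not cover dentine. These 5 summed to 1.79, 4.43 and 15.4 CPM at E16.5 and 7.18, 3.84 and 21.8 CPM at P0. *Mmp20*, an enamel protease, had at most 2 counts in any library. The 8 skeletal muscle genes went the other way, with 39891, 19886 and 13948 CPM at E16.5 and 30429, 38159 and 6413 CPM at P0. At E13.5 and E14.5 their sum was highest in replicate 3, at 538 and 1429 CPM. The library with the most muscle RNA was thus the lowest of its stage for most members at E16.5 and for all at P0. The 17 osteoblast products did not follow this order in full. They summed to 33397, 29405 and 40730 CPM at E16.5, lowest in replicate 2. At P0 they summed to 67074, 36000.1 and 39361 CPM, highest in replicate 1. The part of these tissues in the spread of the members was not tested.

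The osteoblast products (collagens, matrix proteins, enzymes and receptors that osteoblasts and osteocytes make) showed their largest median difference between neighbouring stages at the step at which *Sp7* rose. Between E14.5 and E15.5 16 of 17 were called higher and 0 lower, where 12.7% of all genes were called higher, and their median log2 fold change was 3.13 against 0.03 for all tested genes. *Ibsp*, a sialoprotein of mineralizing matrix, went from 67.4 to 1235 CPM (log2 fold change 4.20, edgeR adjusted p = 0.00147), and *Dmp1*, an osteocyte matrix protein, from 0.989 to 45.8 CPM (log2 fold change 5.53). *Pth1r*, the parathyroid hormone receptor, was the 1 product not called, with a log2 fold change of 0.93 (edgeR adjusted p = 0.0611). *Bglap* and *Bglap2*, near-identical osteocalcin genes, are counted in the 16, and reads may be split between them. Before this, from E13.5 to E14.5, 0 of 17 were called by edgeR, where only 0.00903% of all genes were called in either direction. Their median log2 fold change at that step was 0.42 against 0.02 over all genes. An unadjusted p under 0.05 in edgeR was found for 3 of the 17, and the share of all genes with one was not recorded. Lists of other cell types also moved from E14.5 to E15.5. Called higher were 7 of 8 osteoclast genes (median log2 fold change 2.97) and 5 of 8 skeletal muscle genes (2.53). Called lower were 3 of 9 forebrain neuron genes (-1.74) and 2 of 6 choroid plexus genes (-1.77). Of all genes, 26.1% were called at this step in either direction and 12.7% higher.

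After E15.5 the products were higher relative to *Sp7*. The summed products per unit of *Sp7* CPM were 164 to 236 at E13.5, 92.2 to 165 at E14.5 and 195 to 242 at E15.5, so that E13.5 overlapped with both neighbours. They were 244 to 530 at E16.5 and 383 to 768 at P0, above every earlier library. *Col1a1* and *Col1a2*, the chains of type I collagen, made up 71.6% to 83.2% of the sum in each library, so the quotient is mostly collagen over *Sp7*. It was not tested, and it compares levels that are not per length.

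**Figure D5:**
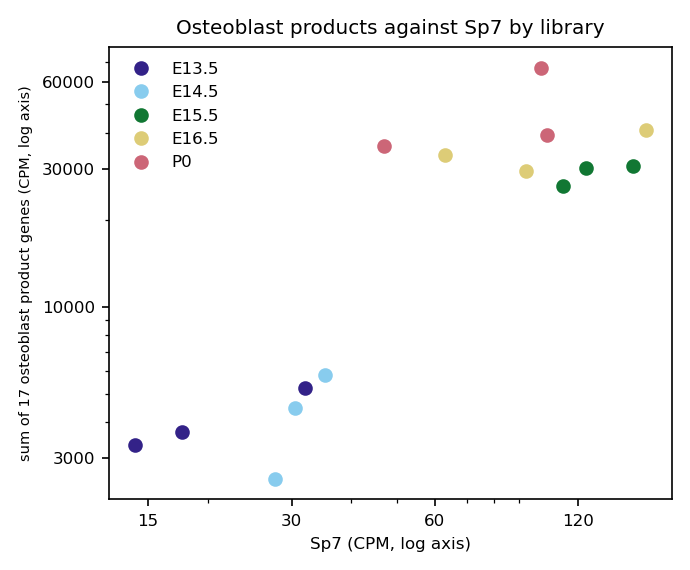
Summed CPM of the 17 osteoblast product genes (vertical log axis) against *Sp7* CPM (horizontal log axis) in each of the 15 libraries, coloured by stage. E13.5 and E14.5 lie at the lower left with sums of 2549 to 5825 CPM, and the later stages start at 26039.5 CPM, where the P0 library with the least *Sp7* still holds 36000.1 CPM.

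The same comparisons were made for 8 relatives of the members. *Runx1*, a paralogue of *Runx2*, was higher at E15.5 than at E14.5 (log2 fold change 0.73, edgeR adjusted p = 0.0238) and at P0 than at E13.5 (0.54, edgeR adjusted p = 0.0408). *Cbfb*, the shared partner of RUNX proteins, was lower at P0 than at E13.5, by -0.997 on the log2 scale (edgeR adjusted p = 0.00377). *Dlx1* was lower at P0 than at E13.5 as well (log2 fold change -2.54, edgeR adjusted p = 0.00412). It had 12.5 ± 9.05 against 72.0 ± 42.1 CPM (SD, n = 3). Forebrain markers summed to 11.2 to 62.8 CPM at P0 and 67.3 to 394 CPM at E13.5, and their part in this difference was not tested. *Msx3*, an *Msx* gene of the neural tube, had 3.01 to 9.78 CPM at E14.5 and 2 to 5 counts per library at E15.5, alongside the forebrain and choroid plexus markers given above, and their part in it was not tested. In all, 1 relative was called higher and 1 lower at E15.5 against E14.5. Of all genes, 26.1% were called there in either direction and 12.7% higher. At P0 against E13.5 1 was called higher and 3 lower, with a median of -0.94, against 29.8% of all genes higher and 26.8% lower.

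Among 12 other regulators of osteoblast fate, 2 were called higher at E15.5 against E14.5 and 0 lower, where 12.7% of all genes were called higher. These were *Tcf7*, a Wnt-dependent factor (log2 fold change 1.52, edgeR adjusted p = 0.0181), and *Fosl2*, an AP-1 factor (1.10, edgeR adjusted p = 0.0277). Between E13.5 and P0 4 rose and 5 fell, against 29.8% and 26.8% of all genes. *Twist1* and *Twist2*, which restrain RUNX2, were among those that fell, by 1.10 and 2.13 on the log2 scale (edgeR adjusted p = 0.00580 and 0.00299), with *Zfp521*, *Sox9* and *Lef1*. *Foxo1*, *Tcf7* and *Fosl2* were among those that rose.

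Genes of BMP signalling, which induces *Msx2*, *Dlx5* and *Runx2*, were in part lower at birth. Of 14, 6 were called lower at P0 against E13.5 and 0 higher, with a median log2 fold change of -0.54 against 0.03 over all genes, and 26.8% of all genes were called lower. They were the receptors *Bmpr1a* (-0.77) and *Bmpr2* (-0.75), the signal transducers *Smad1* (-0.42), *Smad4* (-0.71) and *Smad5* (-1.05), and the target *Id2* (-0.57). The related *Id1* (0.39) and *Id3* (-0.01), and *Smad6* (-0.22), were not called. The ligand *Bmp4* stood at 29.3 CPM at E13.5 and 29.2 CPM at P0. At E15.5 against E14.5 1 of the 14, *Smad1*, was called lower (-0.50, edgeR adjusted p = 0.0290). Of all genes, 26.1% were called there in either direction and 12.7% higher.

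Of 16 genes known as ATF4 targets, 6 rose and 3 fell from E13.5 to P0, against 29.8% and 26.8% of all genes. Those that rose were *Nupr1* (log2 fold change 5.50), *Eif4ebp1* (2.15), *Chac1* (1.75), *Asns* (1.10), *Ddit4* (0.80) and *Slc3a2* (0.76). Those that fell were the biosynthetic enzymes *Psat1* (-0.66), *Phgdh* (-0.80) and *Aldh18a1* (-0.86), which make serine and proline precursors. The median was 0.66 against 0.03 over all genes. At E15.5 against E14.5, where *Atf4* was not called, *Nupr1*, *Eif4ebp1* and *Shmt2* rose and 0 fell, where 12.7% of all genes were called higher. The list mixes genes that other factors also control.

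The genes with the most similar profiles over the 15 libraries were found by the smallest root mean square difference in log2 CPM, each profile centred on its own mean, among 16512 genes with a mean of at least 1 CPM, the 7 members left out. For *Sp7* they included *Tcf7* (0.33) and *Ihh*, a hedgehog ligand (0.35). For *Runx2* they included *Lepr*, the leptin receptor (0.29), and *Smpdl3b* (0.30). *Dlx3* was nearest to *Sostdc1*, a secreted BMP and Wnt antagonist (0.38), *Wnk4* (0.44) and *Hs3st6* (0.45). *Dlx5* was nearest, outside the members, to *Batf3* (0.36), *Lockd* (0.37) and *Dkk1*, a Wnt antagonist (0.37). *Dlx6* lay near *Cenph* (0.35) and *Cdc20* (0.36), both genes of cell division, and *2700099C18Rik* (0.37). *Msx2* had the most distant nearest genes, *Cyp26a1*, which degrades retinoic acid (0.55), *Dlx2* (0.69) and *Spo11* (0.77). *Atf4* had the closest, *Tmem258*, *Rpl35* and *Sdf4* (0.07 to 0.08), and its own SD over the libraries was also the smallest of the members, 0.30 on the log2 scale. By Pearson correlation in place of this measure, at most 1 of the 3 nearest genes was shared for any member.

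Among the members themselves, the nearest pair was *Runx2* and *Dlx5*, with a root mean square difference of 0.36, followed by the neighbours *Dlx5* and *Dlx6* with 0.46. *Runx2* and *Sp7*, which act in sequence in the lineage, differed by 0.87, and the most distant pair was *Sp7* and *Msx2* with 1.64. These are descriptions over 15 libraries that share their stages and, within a stage, the library differences described above.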

How the data were processed

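RNA of 15 pooled wild-type palate libraries, 3 at each of 5 stages, was sequenced after an Illumina library preparation, per the labels' protocols. The authors deposited 1 table of raw counts per gene, made with featureCounts on reverse-stranded read pairs and the GENCODE M18 annotation, per the file header. cutadapt 3.4, FastQC 0.11.9, Bowtie2, HISAT2 2.2.1, SAMtools 1.12, Subread 2.0.1 and the build mm10 are named in the submitters' processing notes. Duplicates were marked before counting, per the file header. Gene length, a further column of the deposited file, gave FPKM.

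Symbols came from GENCODE M21 for 54079 of 54232 genes. Genes were filtered with filterByExpr by stage (minimum count 10), and after TMM normalization edgeR 4.0.16, run under R 4.3.3, fitted all 15 libraries with 1 coefficient for each stage. Contrasts were tested by the quasi-likelihood F test, adjusted by Benjamini-Hochberg over 22151 genes, with a threshold of 0.05. The SE is the size of the fold change divided by the root of its F value. Ratios were compared by exact permutation. Log2 CPM for profile likeness used a prior count of 2. The members and the 14 gene lists were chosen with earlier results of these data known, and no set test was run. Besides the 7 members, genes named were members of a list or the 3 nearest in profile to a member; some of these are not reported here. Alternatives were DESeq2 1.42.0, 2 other normalizations, 2 other filters, the 6 libraries of a comparison alone, a replicate block and leaving out each library, and, added after the data were seen, replicates 1 and 2 alone.

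Tested on simulated counts for E15.5 against E14.5 (22151 genes, 200 changed), the edgeR procedure called 13.4% of the 67 genes with a true 2-fold change. The share was 52.2% for 67 genes at 4-fold and 77.3% for 66 genes at 8-fold. It called 2 of 21951 unchanged genes. With 200 changed genes, against 5773 called in the data for this comparison, the adjustment was stricter in the simulation. At 3 counts, a library's detection floor was 0.0435 to 0.140 CPM, for counting error only.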

Additional observations from a re-analysis of the deposited data

How the results depend on the processing

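*Sp7* at E15.5 against E14.5 and at P0 against E13.5, and *Atf4* at P0 against E13.5, passed in edgeR and DESeq2 under each alternative run. The number of members called at E15.5 against E14.5 was 1, and it was 2 with DESeq2's size factors in edgeR, 3 with upper-quartile normalization, 3 with a mean of at least 1 CPM, 5 on the 6 libraries of the comparison, 5 in DESeq2, 3 with replicates 1 and 2 alone and 1 to 2 with a library left out. In DESeq2 1 was called at E14.5 against E13.5, 1 at E16.5 against E15.5 and 3 at P0 against E13.5. At P0 against E13.5 the count of 2 became 4 with replicates 1 and 2 alone and ranged from 2 to 4 with a library left out. Over all stages it ranged from 2 to 4. The shares of all genes called under the alternatives, the replicate block included, were not recorded, so these counts cannot be set against them. In the simulation most 2-fold changes were not called, which limits what a missed threshold shows.

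Libraries of equal replicate number were not treated as pairs, since nothing in the labels says what the numbers share and the correlations of their deviations from the stage mean ran from -0.30 to 0.55 and fell below 0.1 in at least 1 pair of every comparison. For replicate 3 they were 0.20 to 0.55 between neighbouring stages. With the number as a replicate block, 1 member was called at E14.5 against E13.5, 5 at E15.5 against E14.5, 1 at E16.5 against E15.5, 0 at P0 against E16.5, 3 at P0 against E13.5 and 5 over all stages.

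Fold changes that changed sign under an alternative were not called where their sign differed. At E16.5 against E15.5 *Dlx3* had log2 fold changes of 0.0076 with DESeq2's size factors and 0.0079 in DESeq2, and *Msx2* -0.63 with the replicate block and -1.27 with replicates 1 and 2 alone. At P0 against E16.5 *Msx2* had -0.039 without a filter, -0.25 with the block and -1.05 with replicates 1 and 2 alone, and *Dlx6* -0.023 with the last. At P0 against E13.5 *Dlx5* had 0.0062 with DESeq2's size factors, 0.082 with upper-quartile normalization, 0.073 with a mean of at least 1 CPM, 0.021 on 6 libraries and 0.0072 in DESeq2. With a library left out, the ranges that crossed 0 were -0.10 to 0.052 for *Atf4* at E14.5 against E13.5, and, at E16.5 against E15.5, -0.72 to 0.36 for *Dlx3*, -0.87 to 0.0062 for *Dlx5* and -1.42 to 0.65 for *Msx2*. At P0 against E16.5 they were -0.23 to 0.68 for *Runx2*, -0.65 to 0.092 for *Sp7*, -1.13 to 0.55 for *Dlx3*, -0.52 to 0.78 for *Dlx5*, -0.18 to 0.68 for *Dlx6* and -2.65 to 1.55 for *Msx2*. At P0 against E13.5 they were -0.037 to 0.49 for *Runx2*, -0.074 to 1.32 for *Dlx3*, -0.68 to 0.37 for *Dlx5* and -2.79 to 0.43 for *Msx2*, the last called at its lower end, where the sign was that of the reported value. The causes were not tested.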
